A study of Mus musculus with 9 samples.

Results

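MHC class II presentation was followed through 8 genes in the RNA of macrophages with and without Tet2: H2-Aa, H2-Ab1, H2-Eb1, Cd74, H2-DMa, H2-DMb1, H2-DMb2 and Ciita. They were chosen by mouse symbol, each matched to its Ensembl identifier, and all 8 were found among the 47731 genes of the count table and passed the filter on low counts. The mouse macrophages were at passage 0 and in M-CSF, the growth factor of macrophages, in both genotypes, with genotype labels Tet2 Knockout and Wild-Type. TET2 oxidises 5-methylcytosine in DNA to 5-hydroxymethylcytosine (5hmC). RNA depleted of ribosomal RNA was sequenced in 2 knockout libraries and 3 wild-type libraries, and DNA enriched for biotin-tagged 5hmC in 2 of each genotype. The labels used here give no strain, age, sex or allele, and they do not say whether libraries of a genotype came from separate animals or cultures. Any p-value here thus measures no more than the spread between these libraries, and that spread may be technical.

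MHC class II molecules carry peptides from endosomes to the cell surface, where CD4 T cells read them. An alpha and a beta chain pair in the endoplasmic reticulum with the invariant chain, which fills the peptide groove until endosomal proteases cut it down, and the H2-DM heterodimer then exchanges the last invariant-chain fragment for peptide. Ciita, a coactivator that does not bind DNA itself, switches on this gene set through a shared promoter module of X and Y boxes, and macrophages raise it mainly in response to interferon gamma.

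The RNA libraries held from 16053426 counts in genes (knockout replicate 1) to 56394358 (wild-type replicate 3). Wild-type replicate 3 stood apart. The 8 stromal markers summed to 5025 normalised counts there (normalised CPM, per 1000000 of the TMM-scaled library) and to between 1.64 and 6.41 in the other 4 libraries. The whole-gene level of Tet2 did not check the labels. It was 228 and 122 normalised CPM in the libraries labelled knockout and 104, 136 and 39.2 in those labelled wild type (log2 difference 0.91 ± 0.56 SE, edgeR adjusted p = 0.52). Every direction below is therefore that of the libraries labelled knockout against those labelled wild type. The 9 macrophage markers summed to between 12625 and 22101 normalised CPM over the 5 libraries.

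In outline, 7 of the 8 members were fitted lower and 1 was fitted higher in the libraries labelled knockout, at a median log2 difference of -1.35, beside -0.03 over all 14851 genes tested, of which 51.6% were lower. None of the 8 passed an adjusted p of 0.05 by edgeR's quasi-likelihood test, which called 0.0135% of all genes tested. At an unadjusted p under 0.05 there were 2 members, beside 13.8% of all genes: H2-DMb1 on the lower side, with 7.86% of all genes, and H2-DMb2 on the higher side, with 5.95%. DESeq2 called both, beside 7.44% of the genes it tested (4.39% lower and 3.06% higher). The libraries of both genotypes did not overlap for 3 members, H2-DMa, H2-DMb1 and H2-DMb2, beside 36.2% of all genes tested, so that share lay near the background. In RNA from whole cultures, fewer cells that carry a transcript and less of it per cell cannot be told apart.

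**Figure D1:**
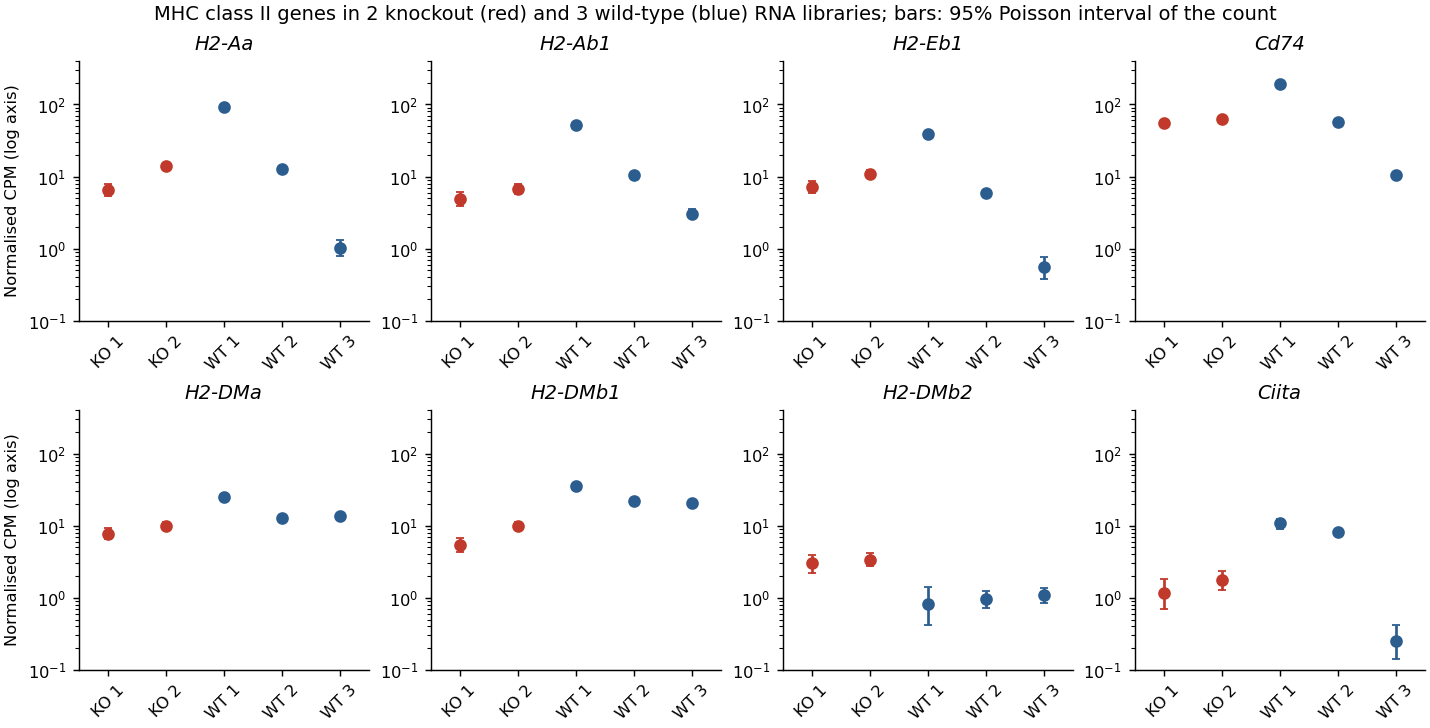
Each panel shows 1 member, with normalised CPM on a log axis for the 2 knockout (red) and 3 wild-type (blue) RNA libraries and bars for the 95% Poisson interval of the count. The core chains and Ciita spread over a wide range among the wild-type libraries with the knockout libraries inside it, whereas H2-DMb1 and H2-DMb2 separate by genotype in opposite directions.

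The classical chains came first. H2-Aa (ENSMUSG00000036594; GRCm38 chromosome 17, 34282744 to 34287823) encodes the alpha chain of the A molecule. It was at 6.59 and 13.9 normalised CPM in knockout replicates 1 and 2 and at 91.8, 12.6 and 1.02 in wild-type replicates 1, 2 and 3, from 61 to 1342 counts. Wild-type replicate 1 was far above and wild-type replicate 3 far below the rest, and both knockout libraries lay between them. Knockout replicate 2 (95% Poisson interval 12.5 to 15.4) and wild-type replicate 2 (11.7 to 13.6) differed by no more than counting error. The fitted log2 difference was -1.77 ± 1.65 (SE), with a 95% interval from -5.88 to 2.35 (edgeR adjusted p = 0.661).

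H2-Ab1 (ENSMUSG00000073421; chromosome 17, 34263227 to 34269418) encodes the beta chain that pairs with H2-Aa. Its levels were 4.95 and 6.74 normalised CPM in the knockout libraries and 52.7, 10.5 and 3.08 in wild-type replicates 1 to 3. Here wild-type replicates 1 and 2 were both above the knockout libraries and wild-type replicate 3 was below them. The log2 difference of H2-Ab1 was -1.91 ± 1.20 (SE, edgeR adjusted p = 0.528).

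H2-Eb1 (ENSMUSG00000060586; chromosome 17, 34305867 to 34316674) encodes the beta chain of the E molecule. It was at 7.20 and 11 normalised CPM in the knockout libraries and at 39.0, 5.94 and 0.552 in wild-type replicates 1 to 3. Both knockout libraries were above wild-type replicates 2 and 3, so the lower fitted level (log2 -0.73 ± 1.5 SE, edgeR adjusted p = 0.864) rested on wild-type replicate 1. H2-Ea-ps, the pseudogene that stands for the matching alpha chain in some mouse strains, had no count in any library, which allows between 0.0501 and 0.205 normalised CPM (3 counts per library).

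Cd74 (ENSMUSG00000024610; chromosome 18, 60803849 to 60812652) encodes the invariant chain. It was at 54.5 and 63.4 normalised CPM in the knockout libraries and at 193, 57.1 and 10.7 in wild-type replicates 1 to 3. The knockout libraries again lay inside the wild-type range, close to wild-type replicate 2. The log2 difference of Cd74 was -0.56 ± 1.07 (SE, edgeR adjusted p = 0.85).

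The spread of these 4 genes within the wild-type libraries was the main feature of their data. The highest wild-type library was 90.0 times the lowest for H2-Aa, 70.8 times for H2-Eb1, 18.1 times for Cd74 and 17.1 times for H2-Ab1. The median over all genes tested was 1.78 times. A larger spread than that of H2-Aa was seen in 3.18% of genes tested, and a larger one than that of H2-Ab1, the least spread of the 4, in 6.32%. The 2 knockout libraries were closer to each other, with ratios from 1.16 (Cd74) to 2.11 (H2-Aa). All 4 genes had wild-type replicate 1 highest and wild-type replicate 3 lowest. Leaving out wild-type replicate 1 turned the direction of 3 of them, to log2 differences of 0.60 for H2-Aa, 1.5 for H2-Eb1 and 0.80 for Cd74, and the median of the 4 went from -1.25 to 0.70. Leaving out wild-type replicate 3 took that median to -1.82. In that setting DESeq2 called 4 members, beside 7.49% of genes, with H2-Ab1 among them (log2 -2.40, DESeq2 adjusted p = 0.0278) but not H2-Aa (-2.31, adjusted p = 0.0888). The part of the stromal signal of wild-type replicate 3 in these low values was not tested. Granulocyte markers also varied over the libraries. The 7 of them summed to 1.53 and 150 normalised CPM in knockout replicates 1 and 2 and to 122, 8.47 and 1.72 in wild-type replicates 1 to 3, mainly S100a8, S100a9 and Ltf, with Ly6g at 0 in all 5. They were thus high in wild-type replicate 1 and knockout replicate 2, the 2 libraries highest in H2-Aa, H2-Eb1 and Cd74, and their part in that order was not tested.

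**Figure D2:**
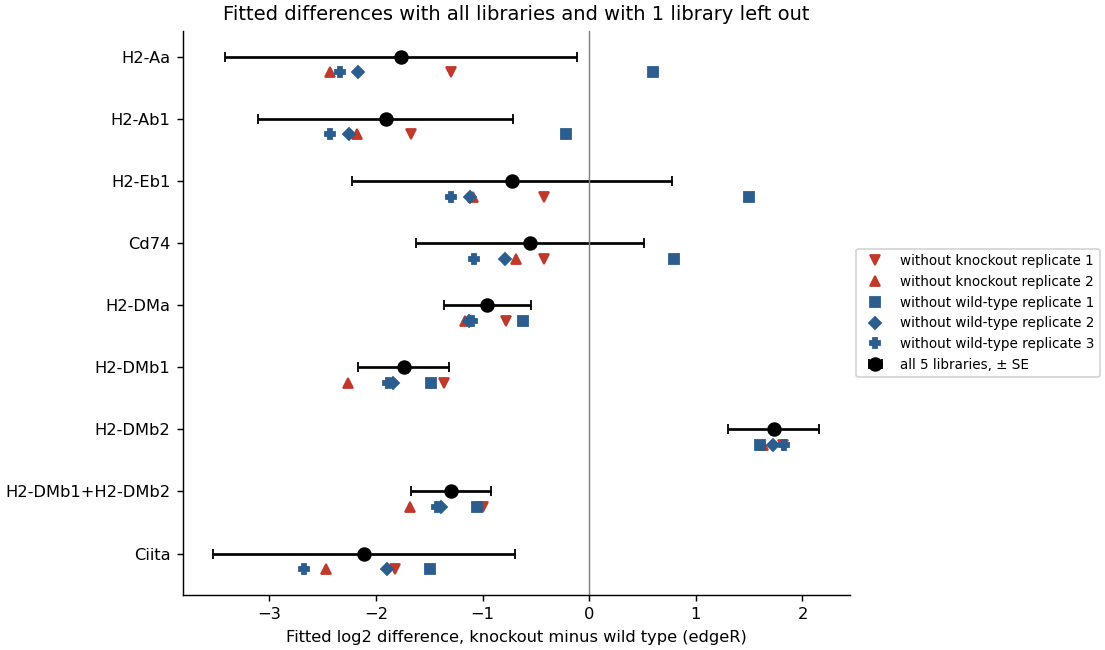
Points show the fitted log2 difference (knockout minus wild type, edgeR) of each member and of the summed H2-DMb1 and H2-DMb2, with bars for the SE, and coloured marks show the same with 1 library left out. H2-Aa, H2-Eb1 and Cd74 cross 0 without wild-type replicate 1, while H2-DMb1 and H2-DMb2 stay on their own sides in every setting drawn.

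Reads of H2-Eb1 per read of H2-Aa did not overlap between genotypes. This ratio depends on the lengths of both transcripts, so only its change between libraries can be read. It was 1.09 and 0.790 in the knockout libraries and 0.425, 0.470 and 0.541 in wild-type replicates 1 to 3, although the levels of both genes differed far more among the wild-type libraries than the ratio did (two-sided exact permutation p = 0.2, the smallest that 2 against 3 libraries allow; adjusted p = 0.4 over 6 ratios, all chosen after values were seen). The H2-Aa to H2-Ab1 ratio was 1.33 and 2.07 against 1.74, 1.20 and 0.332, and that of Cd74 to the 3 chains together 2.91 and 2.0 against 1.05, 1.97 and 2.29. Both overlapped (exact permutation p = 0.4, adjusted p = 0.48 for each).

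The promoters of H2-Aa and H2-Eb1 are shown because the 2 genes followed one profile over the libraries. RefSeq sequences of 300 bases around the start (GRCm38.p6) were at hand for 5 of the 8 members: H2-Aa, H2-Eb1, H2-DMa, H2-DMb1 and H2-DMb2. Each stretch below runs 5′ to 3′ on the strand of the gene from 110 to 11 bases before its start, at chr17:34287834-34287933 on the minus strand for H2-Aa and chr17:34305757-34305856 on the plus strand for H2-Eb1. Capitals mark Y box letters (TGATTGG), X box letters (AACNGATG) and, in H2-Aa alone, the shorter X box start (GNAAC).
H2-Aa: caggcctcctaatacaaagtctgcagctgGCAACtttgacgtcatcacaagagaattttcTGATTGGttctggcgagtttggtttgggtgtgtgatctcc
H2-Eb1: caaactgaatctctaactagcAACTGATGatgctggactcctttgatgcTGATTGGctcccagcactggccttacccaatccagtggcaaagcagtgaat
The Y box letters began 50 bases before the start of H2-Aa and 61 before that of H2-Eb1, and the X box letters 89 before that of H2-Eb1. Searched on both strands, TGATTGG occurred in 7.82% and AACNGATG in 2.32% of 32851 RefSeq windows of this length. GNAAC alone occurred in 84.8%. GNAAC followed by TGATTGG with 15 to 45 bases between occurred in 0.852% on either strand and in 0.414% on the strand of the gene. H2-Aa, H2-Eb1 and H2-DMb1 held it on the strand of the gene. The letters were chosen with class II promoters in mind, GNAAC and the X box letters overlap where both occur, and a match is a description of these letters and not of binding.

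Of the editors, H2-DMa (ENSMUSG00000037649; chromosome 17, 34119693 to 34139101) encodes the alpha chain of H2-DM. It was at 7.75 and 9.90 normalised CPM in the knockout libraries and at 25, 12.8 and 13.7 in wild-type replicates 1 to 3. All 3 wild-type libraries were above both knockout libraries. The log2 difference was -0.96 ± 0.41 (SE), with a 95% interval from -1.98 to 0.06 (unadjusted p = 0.0612, edgeR adjusted p = 0.385, DESeq2 adjusted p = 0.223). Its wild-type spread of 1.95 times was close to the median of all genes. Neither of its 2 RefSeq windows, at 34122582 to 34122881 and 34125268 to 34125567, held the Y box or X box letters. Both windows lie inside the gene span given above and cover neither end of it. A promoter of H2-DMa elsewhere was not searched, so these windows do not show that the gene lacks the boxes.

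H2-DMb1 (ENSMUSG00000079547; chromosome 17, 34153191 to 34160229) encodes a beta chain of H2-DM. It had 89 and 261 counts in knockout replicates 1 and 2 and 512, 1198 and 1216 in wild-type replicates 1 to 3, which gave 5.43 and 9.94 against 35.0, 22.0 and 20.3 normalised CPM. All 3 wild-type libraries were well above both knockout libraries. The log2 difference was -1.74 ± 0.43 (SE), a 3.34-fold lower level in knockout (unadjusted p = 0.00762, edgeR adjusted p = 0.225). DESeq2 called H2-DMb1 lower (adjusted p = 0.00451), also without wild-type replicate 1 (0.0224, where 6.34% of genes were called) or wild-type replicate 3 (0.00804), but not without knockout replicate 1 (log2 -1.37, adjusted p = 0.23).

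H2-DMb2 (ENSMUSG00000037548; chromosome 17, 34143229 to 34151553), the neighbouring beta chain gene, pointed the other way. It had 49 and 89 counts in knockout replicates 1 and 2 and 12, 52 and 65 in wild-type replicates 1 to 3, or 2.99 and 3.39 against 0.821, 0.956 and 1.09 normalised CPM. The libraries of a genotype lay close together, and the 3 wild-type libraries spread by 1.32 times. The log2 difference was 1.73 ± 0.43 (SE), 3.32-fold higher in knockout (unadjusted p = 0.00798, edgeR adjusted p = 0.226). DESeq2 called H2-DMb2 higher (adjusted p = 0.00219). Its DESeq2 call was lost without knockout replicate 1 (0.297), knockout replicate 2 (0.353), wild-type replicate 1 (0.0515) or wild-type replicate 2 (0.101), and the log2 difference then stayed between 1.63 and 1.80.

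The 2 beta chain genes are paralogs. The sources used here do not give how reads that match both were counted, so their split is uncertain. Summed before the fit, they were at 8.43 and 13.3 normalised CPM in the knockout libraries and at 35.8, 23.0 and 21.4 in wild-type replicates 1 to 3. The sum was lower in knockout without overlap (log2 -1.29 ± 0.37 SE, unadjusted p = 0.0153, edgeR adjusted p = 0.257, DESeq2 adjusted p = 0.0295). With a library left out, DESeq2 still called the sum without wild-type replicate 3 (0.0449) and in no other case (0.0565 to 0.58). H2-DMb2 made up 35.5% (95% exact binomial interval 27.6 to 44.1) and 25.4% (20.9 to 30.3) of the summed counts in the knockout libraries. In wild-type replicates 1 to 3 it made up 2.29% (1.19 to 3.97), 4.16% (3.12 to 5.42) and 5.07% (3.94 to 6.42). No interval of one genotype reached one of the other. Intervals here cover counting error only. Over libraries the share was 30.5% ± 7.13 (SD, n = 2) against 3.84% ± 1.42 (SD, n = 3), with an exact permutation p = 0.2 (adjusted p = 0.4 over the 6 ratios).

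**Figure D3:**
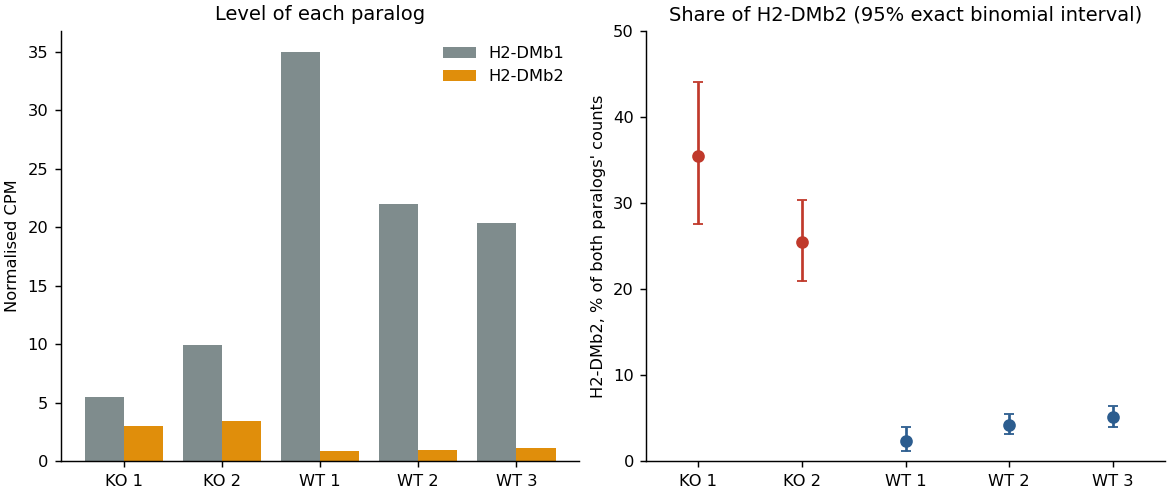
The left panel shows normalised CPM of H2-DMb1 and H2-DMb2 as bars from 0 for each RNA library, and the right panel shows the share of H2-DMb2 in the counts of both, with 95% exact binomial intervals. The share was 25.4% or more in the knockout libraries and 5.07% or less in the wild-type libraries.

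The promoters of the pair are shown because their RNA differed in opposite directions. Each stretch runs from 150 to 11 bases before the RefSeq start on the plus strand, at chr17:34153041-34153180 for H2-DMb1 and chr17:34145099-34145238 for H2-DMb2 (GRCm38.p6), with the X box letters and then the Y box letters in capitals.
H2-DMb1: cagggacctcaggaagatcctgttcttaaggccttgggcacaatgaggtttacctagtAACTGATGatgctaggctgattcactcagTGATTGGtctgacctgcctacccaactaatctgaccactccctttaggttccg
H2-DMb2: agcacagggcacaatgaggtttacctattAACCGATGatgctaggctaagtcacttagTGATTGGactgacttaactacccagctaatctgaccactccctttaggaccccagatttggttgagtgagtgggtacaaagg
Over the whole 300-base windows, 208 of 247 aligned bases (84.2%) were identical. Both held the X and the Y box letters, at 92 and 63 bases before the start of H2-DMb1 and at 121 and 92 before that of H2-DMb2. The window of H2-DMb1, 34152941 to 34153240, covers the first base of the gene span given above. That of H2-DMb2, 34144999 to 34145298, lies inside its gene span, so the positions of its boxes depend on the start taken. The shorter GNAAC letters before the Y box were in the window of H2-DMb1 and not in that of H2-DMb2.

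Counts of H2-DMb1 per count of H2-DMa were 0.701 and 1.0 in the knockout libraries and 1.4, 1.72 and 1.48 in wild-type replicates 1 to 3. The groups did not overlap (exact permutation p = 0.2, adjusted p = 0.4 over the 6 ratios). This ratio leaves out H2-DMb2, whose split from H2-DMb1 is uncertain. Summed counts of both beta chain genes were 138 and 350 against 524, 1250 and 1281. Those of H2-DMa were 127 and 260 against 366, 697 and 820. The ratio of the sum to H2-DMa was not tested, so a changed balance of H2-DM chains is not shown.

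Ciita (ENSMUSG00000022504; chromosome 16, 10480014 to 10531064), the coactivator of the set, had few counts. There were 19 and 46 counts in knockout replicates 1 and 2 and 157, 438 and 15 in wild-type replicates 1 to 3, or 1.16 and 1.75 against 10.7, 8.05 and 0.251 normalised CPM. Wild-type replicates 1 and 2 were well above the knockout libraries and wild-type replicate 3 was below them, a 42.8-fold spread within the wild-type libraries. The log2 difference was -2.11 ± 1.42 (SE, edgeR adjusted p = 0.553, DESeq2 adjusted p = 0.416). Without wild-type replicate 3, DESeq2 called Ciita lower (log2 -2.64, adjusted p = 2.7e-05). Ciita per 100 counts of H2-Aa, H2-Ab1 and H2-Eb1 was 6.19 and 5.53 in the knockout libraries and 5.85, 27.7 and 5.40 in wild-type replicates 1 to 3. Wild-type replicate 2 alone had more Ciita for its class II chains, and the other 4 libraries were close together (exact permutation p = 1).

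A profile of the core chains was drawn as the mean over H2-Aa, H2-Ab1, H2-Eb1 and Cd74 of log2 normalised CPM, centred on each gene's mean over the 5 libraries. It stood at -0.32 and 0.27 in the knockout libraries and at 2.54, 0.13 and -2.62 in wild-type replicates 1 to 3. The root mean square distance of Ciita from it was 0.87 on the log2 scale, that of H2-DMa 1.45, of H2-DMb1 1.63 and of H2-DMb2 1.95. Ciita was therefore the nearest and H2-DMb2 the farthest of the other members. H2-DMa and H2-DMb1 shared the high value in wild-type replicate 1 but not the low one in wild-type replicate 3, where they held at 13.7 and 20.3 normalised CPM.

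The genes nearest to the profile, among 11405 with a mean of at least 1 normalised CPM, were Adra1a (distance 0.21), Napsa (0.54), Fam83f (0.56), Sorl1 (0.61), Eno2 (0.63), Smpd3 (0.64), Pltp (0.70) and Engase (0.71). Adra1a, an alpha-1 adrenergic receptor, was at 13.4 and 17.7 normalised CPM in the knockout libraries and at 113, 24.5 and 3.19 in wild-type replicates 1 to 3. Napsa, an aspartic protease, was at 14.3 and 19.3 against 57.6, 24.0 and 4.91. Both had the order of levels of the core chains at the ends, with wild-type replicate 1 highest and wild-type replicate 3 lowest. Likeness over 5 libraries is a description. When each gene was first divided by its own standard deviation, none of these 8 was among the nearest 8.

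**Figure D4:**
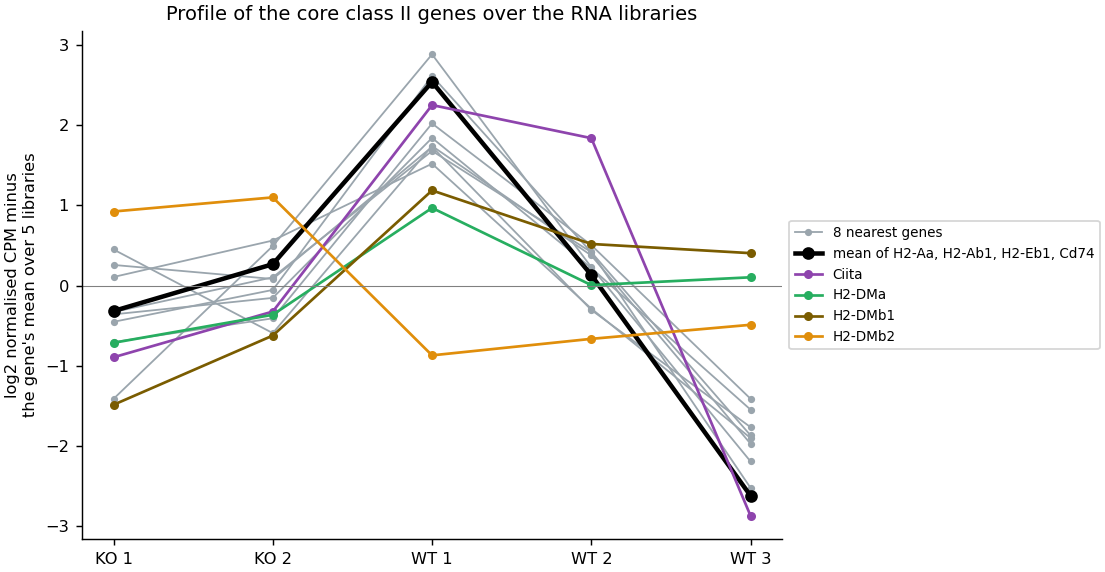
Lines show log2 normalised CPM minus each gene's mean over the 5 RNA libraries for the mean of the 4 core chains (black), the other 4 members (colours) and the 8 nearest genes (grey). Ciita and the grey lines share the high value in wild-type replicate 1 and the low one in wild-type replicate 3, and H2-DMb2 is lowest in wild-type replicate 1.

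Genes for the proteins that bind class II promoters had no call. Of 7 for the RFX complex, NF-Y and CREB, 2 were fitted higher and 5 lower (median log2 -0.03), and none had an unadjusted p under 0.05 by edgeR or passed DESeq2. Rfx5, the DNA-binding subunit of RFX, was at 20.1 and 17.4 normalised CPM in the knockout libraries and at 17.0, 22.3 and 18.3 in wild-type replicates 1 to 3 (log2 -0.03 ± 0.25 SE). Nfya, a subunit of the Y box factor NF-Y, was at 123 and 128 against 153, 126 and 66.7 (log2 0.12 ± 0.37 SE). Creb1 (log2 -0.21 ± 0.26 SE) and Nfyc (0.02 ± 0.23) had fitted differences below their SE as well. Rfxank, another subunit of RFX, had the widest difference of the list and is given after its values were seen. It was at 6.17 and 7.0 against 14.3, 11.1 and 7.57, without overlap (log2 -0.73 ± 0.39 SE, edgeR adjusted p = 0.459, DESeq2 adjusted p = 0.329).

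The path from interferon gamma to Ciita was mixed. Ifng, the cytokine, had no count in any library, with the same limit of 0.0501 to 0.205 normalised CPM. Of the 14 other genes, 7 were higher and 7 lower (median log2 0.11). By edgeR none passed an adjusted p of 0.05. An unadjusted p under 0.05 was found for 1 higher and 1 lower gene, beside 13.8% of all genes in either direction. DESeq2 called 1 of the 14, beside 7.44% of the genes it tested. Both counts lay near those shares. Jak1, the receptor-bound kinase, was at 245 and 259 normalised CPM in the knockout libraries and at 358, 271 and 267 in wild-type replicates 1 to 3 (log2 -0.24 ± 0.24 SE). Spi1, the myeloid factor PU.1, was at 344 and 338 against 256, 253 and 188 (log2 0.55 ± 0.24 SE, edgeR adjusted p = 0.387). Irf8 was at 122 and 111 against 345, 171 and 153 (log2 -0.94 ± 0.42 SE), and Ifngr2 at 136 and 126 against 189, 116 and 96.4 (-0.03 ± 0.33).

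Irf1, a transcription factor that acts at the interferon-responsive promoter of Ciita, is given after its values were seen. It was at 44.8 and 47.7 normalised CPM in knockout replicates 1 and 2 and at 73.9, 65.0 and 86.3 in wild-type replicates 1 to 3 (log2 -0.70 ± 0.21 SE, edgeR adjusted p = 0.268, DESeq2 adjusted p = 0.0818). All 3 wild-type libraries were above both knockout libraries, and neither tool called it.

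Of 9 endosomal processing genes tested, 7 were fitted lower and 2 higher (median log2 -1.19), where 51.6% of all genes were lower. By edgeR none passed an adjusted p of 0.05, although 4, all lower, had an unadjusted p under 0.05, beside 7.86% of all genes on that side. DESeq2 called 3, all lower, beside 4.39% of all genes. Ctss, a protease that trims the invariant chain, was at 602 and 911 normalised CPM in the knockout libraries and at 4046, 2029 and 1706 in wild-type replicates 1 to 3 (log2 -1.78 ± 0.54 SE, edgeR adjusted p = 0.268, DESeq2 adjusted p = 0.0103). Ctsd was at 3213 and 3920 against 24364, 6402 and 12137 (log2 -2.0 ± 0.75 SE, edgeR adjusted p = 0.338, DESeq2 adjusted p = 0.0243). Ctsb (log2 -1.70 ± 0.74 SE, edgeR adjusted p = 0.389) and Ctsl (-0.64 ± 0.39, adjusted p = 0.517) were not called by either tool. Ifi30, the thiol reductase of the endosome, is given after its values were seen. It was at 33.5 and 41.9 against 111, 88.5 and 103 (log2 -1.42 ± 0.22 SE, edgeR adjusted p = 0.162, DESeq2 adjusted p = 1.7e-06). With any 1 library left out DESeq2 still called Ifi30 (adjusted p at most 0.0253), whereas Ctss and Ctsd were not called without knockout replicate 1 (0.392 and 0.438), nor Ctsd without knockout replicate 2 (0.179), where Ctss stood at the threshold (0.05).

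Genes for surface turnover of class II and for co-receptors pointed both ways. Of 12 tested, 7 were higher and 5 lower (median log2 0.11). By edgeR none passed an adjusted p of 0.05, and 2 in each direction had an unadjusted p under 0.05, the same number that DESeq2 called. Over all genes those shares were 13.8% at an unadjusted p under 0.05 and 7.44% by DESeq2. Il4ra was at 739 and 350 normalised CPM in the knockout libraries and at 107, 114 and 245 in wild-type replicates 1 to 3 (log2 1.81 ± 0.51 SE, DESeq2 adjusted p = 0.039). Cd9, a tetraspanin found with class II at the surface, was at 25.1 and 73.9 against 497, 195 and 211 (log2 -2.60 ± 0.69 SE, DESeq2 adjusted p = 0.00413). Cd81 (log2 0.18 ± 0.33 SE) and March8 (-0.32 ± 0.25), a ubiquitin ligase that removes class II from the surface, were not called by either tool. Cd83, which opposes the related ligase March1, is given after its values were seen and was at 8.55 and 8.22 against 97.0, 22.0 and 89.4 (log2 -3.05 ± 0.71 SE, edgeR adjusted p = 0.211, DESeq2 adjusted p = 7.5e-04). Il10, a cytokine known to lower surface class II, is likewise given after its values were seen. It was at 57.7 and 24.9 against 0.752, 8.56 and 0.618 (log2 3.61 ± 1.25 SE, edgeR adjusted p = 0.309, DESeq2 adjusted p = 0.035). Without knockout replicate 1 DESeq2 called none of Il10 (0.685), Il4ra (0.862), Cd9 (0.161) and Cd83 (0.0576). Il4ra was also lost without knockout replicate 2 (0.058), wild-type replicate 1 (0.0921) or wild-type replicate 2 (0.124), Il10 when knockout replicate 2 (0.142) or wild-type replicate 1 (0.0559) was left out, and Cd83 without knockout replicate 2 (0.0529). The remaining class II genes of the locus were near 0: H2-Ob was at most 0.753 normalised CPM, H2-Oa at most 0.228 and H2-Eb2 at most 0.122.

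**Figure D5:**
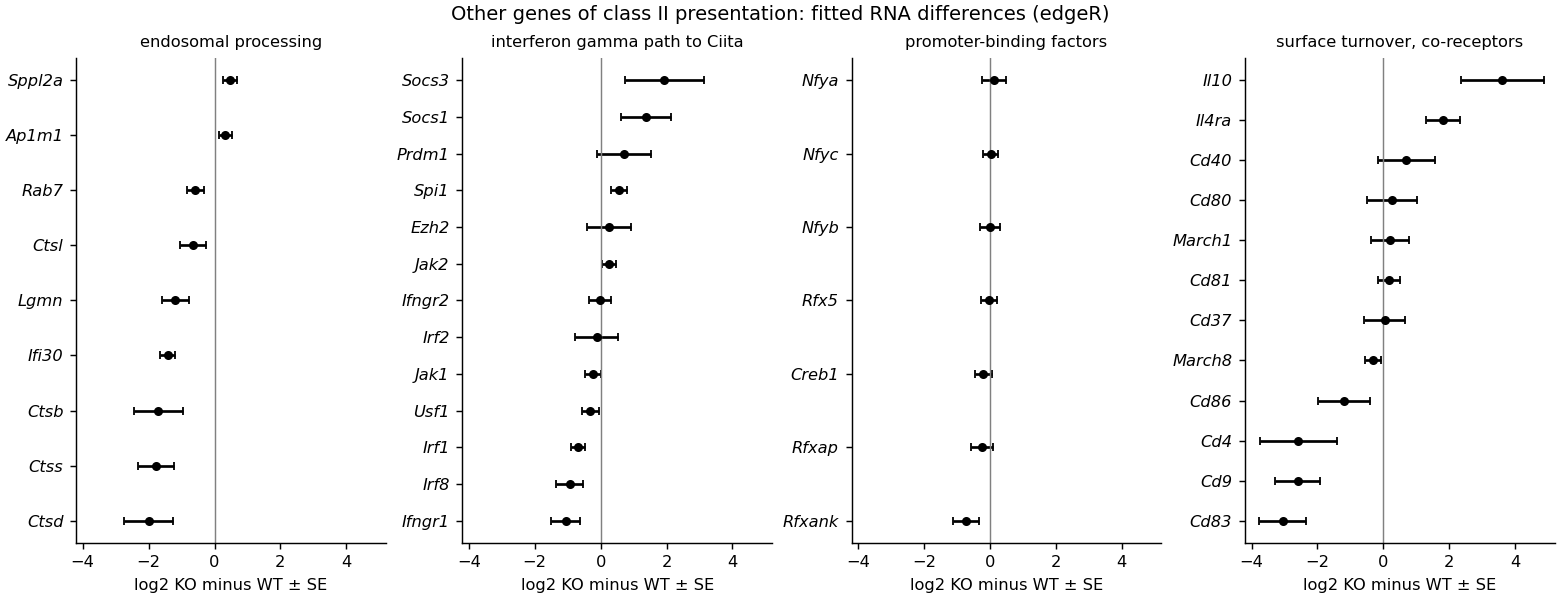
Each panel shows fitted log2 differences (knockout minus wild type, edgeR, bars for the SE) of tested genes of 1 list. Of the promoter-binding factors 6 lie within 0.25 of 0 and Rfxank at -0.73, the endosomal processing genes mostly to the left, and the other lists on both sides.

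Class II genes are also strong in dendritic cells and B cells, so markers of both were read. The 11 dendritic cell markers summed to 26.7 and 14.3 normalised CPM in the knockout libraries and to 280, 171 and 70.2 in wild-type replicates 1 to 3. Nearly all of it in the wild-type libraries was Itgax, at 2.81 and 3.69 against 271, 162 and 66.5 (DESeq2 adjusted p = 2e-15). Most of the list pointed the other way. Of 8 tested, 6 were fitted higher in knockout and 2 lower (median log2 1.02), where 51.6% of all genes were lower. DESeq2 called 1 in each direction, beside 3.06% of the genes it tested higher and 4.39% lower. Batf3 was at 14.4 and 5.29 against 2.60, 3.11 and 0.936 (log2 2.16 ± 0.70 SE, DESeq2 adjusted p = 0.0484, from 0.0404 to 0.964 with a library left out), Ccr7 at log2 3.22 ± 1.52 and Dpp4 at 2.34 ± 1.03, the last 2 not called. The defining markers Flt3, Zbtb46, Xcr1 and Clec9a stayed under 1 normalised CPM in all libraries. The 11 B cell markers summed to 137 and 77.2 in the knockout libraries and to 105, 73.3 and 33.8 in wild-type replicates 1 to 3. Ighm made up most of it in the knockout libraries and in wild-type replicate 2, at 109, 62.8 and 59.8, while Cd22 was the highest in wild-type replicate 1 (62.0) and Ebf1 in wild-type replicate 3 (14.8). Of 6 tested, 5 were fitted higher in knockout and 1 lower. DESeq2 called 4 of them higher and 1 lower, beside the same 3.06% and 4.39% of genes. Cd79b was higher in knockout, at 16.4 and 9.71 against 0.957, 2.72 and 0.217 (DESeq2 adjusted p = 0.0191, but 0.531 without knockout replicate 1, 0.143 without knockout replicate 2 and 0.0604 without wild-type replicate 1). Cd22 was lower, at 3.42 and 2.66 against 62.0, 10.7 and 10.5 (log2 -3.18 ± 1.01 SE, DESeq2 adjusted p = 0.0125, but 0.167 without knockout replicate 1 and 0.208 without knockout replicate 2). The marker genes with values here were chosen after those were seen. The T and NK markers summed to at most 1.02 normalised CPM. The part of these cells in the class II levels was not tested.

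Depth in the 9151 listed 5hmC peaks was 46230 and 42489 counts in knockout replicates 1 and 2, and 42678 and 219116 in the wild-type replicates. Between the knockout libraries the difference was below the sampling noise (a chi-square of 0.575 for each degree of freedom), so they were counted as 1 sample. Of the listed peaks 2 lay in a member, both in Ciita, and 7 within 50 kb of one. None of the 7 had enough counts for the test, which called 19.7% of 859 peaks. With a filter of at least 10 counts over the libraries all 7 entered, and none passed an adjusted p of 0.05 by edgeR. None passed by DESeq2 either, which was run with the knockout libraries as 2 samples. The adjusted p-values of single peaks that follow are from edgeR with that filter.

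Inside Ciita, the peak at chromosome 16, 10500655 to 10500993, called in wild type, had 2 and 1 counts in knockout replicates 1 and 2 and 4 and 24 in wild-type replicates 1 and 2. Per 100000 counts in peaks that was 4.33 and 2.35 against 9.37 and 11 (edgeR adjusted p = 0.783). The peak at 10527909 to 10528130, called in knockout, had 7 and 5 counts against 3 and 7, or 15.1 and 11.8 against 7.03 and 3.19 (log2 2.28 ± 0.84 SE, adjusted p = 0.0943). The 2 peaks pointed opposite ways, each towards the genotype in which it was called, and calling favours that genotype.

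Near the chromosome 17 members, a peak called in both genotypes lay 4448 bases from H2-DMa, inside Brd2. It was at 19.5 and 14.1 counts per 100000 in knockout and 14.1 and 12.8 in wild type (adjusted p = 0.387). The closest to H2-Eb1, at 5431 bases, was at 4.33 and 2.35 against 4.69 and 7.30. Of 2 peaks inside Btnl2, 38736 and 39381 bases from H2-Eb1, the first had no counts in knockout and 2 and 27 in wild type (adjusted p = 0.131). A count of 0 allows up to 6.49 and 7.06 per 100000 in those libraries. The second was at 13.0 and 11.8 against 4.69 and 5.48 (adjusted p = 0.181). The peak nearest Cd74, 31386 bases away inside Tcof1, was at 4.33 and 0 against 2.34 and 11. All 7 peaks thus rest on few counts, and on 1 knockout sample against 2 wild-type samples.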

How the data were processed

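RNA values are counts per gene, as deposited by the authors. 5hmC values are counts per listed peak, also as deposited. Per the submitters' processing notes the build was GRCm38 and the tools were HTSeq, STAR, BWA, Trim Galore, MACS2 and CASAVA 1.4. The role of each, the annotation release, strand setting and handling of reads matching several genes were not given in the sources used here. A symbol was matched for 47224 of 47731 genes. Peak names show calling on merged libraries of a genotype.

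Groups came from the sample labels. Each whole table was fitted with edgeR 4.0.16 in R 4.3.3 (TMM, filterByExpr, glmQLFit and glmQLFTest, two-sided, Benjamini-Hochberg adjustment over all features). RNA used 2 against 3 libraries. 5hmC used the rounded mean of the knockout libraries as 1 sample against 2. Alternatives were DESeq2 1.42.0, limma-voom (limma 3.58.1), other scalings, filters and thresholds, a replicate block, and leaving out each library. DESeq2 with a library left out was added after seeing the data. Ratios were tested by exact permutation over libraries. Promoters were aligned with Biopython 1.88. The steps were tested on simulated counts.

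The members and lists were chosen with earlier results of these data known. Named genes were the members, Tet2, up to 4 genes of each list by highest mean level (or any that passed), and the 8 nearest to the core profile. The 8 exclude predicted genes, clones and pseudogenes. Named peaks were those within 50 kb of a member. Results for some genes of the lists are not reported here.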

Additional observations from a re-analysis of the deposited data

How the results depend on the processing

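The direction of H2-Aa, H2-Eb1 and Cd74 depended on the tool and on wild-type replicate 1. Their log2 differences were 0.74, 1.63 and 0.36 by limma-voom, 0.60, 1.5 and 0.80 by edgeR without wild-type replicate 1, and 0.61, 1.51 and 0.81 by DESeq2 without it. The lowest edgeR values with a library left out were -2.43, -1.30 and -1.09. The cause was not tested. The other members kept their direction in every setting run. By DESeq2 H2-DMb1 (-1.72), H2-DMb2 (1.73) and their sum (-1.27) passed the threshold. DESeq2 calls with a library left out were H2-DMb1 (-2.22, -1.47, -1.82 and -1.85, all but without knockout replicate 1), H2-DMb2 (1.86), H2-Ab1 (-2.40), Ciita (-2.64) and the sum (-1.40), the last 4 without wild-type replicate 3. Members called numbered 0 by edgeR in every setting, 2 by DESeq2 and 0 to 4 by DESeq2 with a library left out.

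Of all genes, edgeR called 2 higher and 0 lower. The counts higher were 502 by DESeq2, 1 by limma-voom or with at least 10 counts in every library, 0 with total-count scaling or the replicate block, and 0 without any 1 library. DESeq2 called 720 lower, and a threshold of 0.1 gave 1. With a library left out, DESeq2 called 80, 203, 386, 634 and 541 higher and 391, 482, 643, 833 and 643 lower (without knockout replicates 1 and 2, then wild-type replicates 1, 2 and 3). Of 5hmC peaks, 154 were called higher and 15 lower. The lower count was 151 with the knockout libraries as 2 samples and 129 with the replicate block. DESeq2 called 71 higher and 0 lower, and a filter of 10 counts gave 433 and 25. With a library left out, 156 to 241 were higher and 29 to 264 lower.

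The replicate block left no RNA gene called, and the members' median log2 difference was -1.42 with it. Same-numbered libraries did not deviate together (r = 0.001 and -0.12 across 14851 genes, 0.006 across 859 peaks), so the number is not a shown pairing. Levels per kilobase of coding sequence were planned and not run, because no protein lengths were used here. Of the nearest 8 genes, 0 were shared after scaling each gene by its standard deviation and 8 with a mean of at least 10 CPM. Peaks at the members numbered 2 in gene bodies or within 2 kb, 4 within 10 kb and 7 within 50 kb.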
